A study of Rattus norvegicus with 6 samples.

Results

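The expression of 7 genes of the cell division machinery was followed in rat back skin after afatinib and after vehicle: Pcna (ENSRNOG00000021264), Ccna2 (ENSRNOG00000015423), Cdk1 (ENSRNOG00000000632), Ccnb1 (ENSRNOG00000058539), Plk1 (ENSRNOG00000018815), Top2a (ENSRNOG00000053047) and Mki67 (ENSRNOG00000028137). They were taken by Ensembl identifier, with no measured value in the rule, but were chosen with earlier results of these data known. They made up 7 of the 33692 features in the count tables. All 7 were found there, and all 7 passed the filter on low counts, which left 15497 features. Afatinib binds covalently to the ErbB receptor tyrosine kinases, among them the epidermal growth factor receptor, and blocks their signalling. The series compares skin of afatinib-treated rats with skin of vehicle-treated rats in connection with the rash caused by such inhibitors, with 3 libraries of total RNA in each group. Strain, sex, age, dose, route and time of treatment were not stated in the labels, nor was it said whether each library came from its own animal, so the p-values measure only the spread between these libraries, which may be partly technical. The afatinib libraries are numbered 1, 2 and 3 as in the sample titles.

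Dividing cells switch these genes on in a set order. Pcna, the sliding clamp that holds DNA polymerases on the template, is made for DNA replication. Ccna2 (cyclin A) activates its kinase partners during replication and on the way into mitosis. Cdk1 is the kinase that starts mitosis, Ccnb1 (cyclin B) is the subunit that activates it, and Plk1 is a kinase of spindle assembly, chromosome separation and cytokinesis. Top2a encodes the topoisomerase that untangles replicated DNA, and Mki67 encodes the protein coating mitotic chromosomes that pathologists stain to count cycling cells. In skin, such transcripts are known mainly from the basal layer of the epidermis, the matrix of growing hair follicles and sebaceous glands, and signals through the epidermal growth factor receptor are among those that keep basal keratinocytes dividing. In whole skin, more dividing cells and more RNA per dividing cell cannot be told apart, and the same holds for fewer cells and less RNA.

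The upstream sequences of these genes are shown for the letters of the elements known from late cell cycle promoters. Whether such elements bear on the transcript levels in these libraries was not tested. RefSeq (build GRCr8) gave a promoter for 6 of the 7 genes by symbol, all but Ccna2. The last 170 bases before the start site are printed 5′ to 3′ on the strand of the gene, with every match to a searched motif in capitals.
Mki67, chr1:199952594-199952763, minus strand: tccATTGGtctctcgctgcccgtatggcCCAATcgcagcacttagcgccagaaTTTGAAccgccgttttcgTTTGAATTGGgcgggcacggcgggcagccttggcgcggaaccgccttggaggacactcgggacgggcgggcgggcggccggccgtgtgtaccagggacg
Top2a, chr10:84473094-84473263, minus strand: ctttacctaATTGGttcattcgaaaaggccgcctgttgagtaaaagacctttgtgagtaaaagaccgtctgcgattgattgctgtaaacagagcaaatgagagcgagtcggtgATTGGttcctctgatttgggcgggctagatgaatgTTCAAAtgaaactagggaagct
Cdk1, chr20:19265123-19265292, plus strand: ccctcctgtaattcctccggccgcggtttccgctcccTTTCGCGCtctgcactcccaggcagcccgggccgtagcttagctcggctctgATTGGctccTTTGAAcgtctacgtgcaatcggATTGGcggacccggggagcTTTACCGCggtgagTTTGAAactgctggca
Ccnb1, chr2:33655226-33655395, minus strand: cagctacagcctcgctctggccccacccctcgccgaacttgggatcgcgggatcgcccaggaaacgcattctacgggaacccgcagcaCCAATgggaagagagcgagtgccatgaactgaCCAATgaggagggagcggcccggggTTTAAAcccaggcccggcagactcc
Plk1, chr1:186147488-186147657, plus strand: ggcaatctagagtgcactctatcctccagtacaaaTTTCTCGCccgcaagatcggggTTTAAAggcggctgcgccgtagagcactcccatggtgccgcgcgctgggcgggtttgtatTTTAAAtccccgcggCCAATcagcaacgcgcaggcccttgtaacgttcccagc
Pcna, chr3:139955821-139955990, minus strand: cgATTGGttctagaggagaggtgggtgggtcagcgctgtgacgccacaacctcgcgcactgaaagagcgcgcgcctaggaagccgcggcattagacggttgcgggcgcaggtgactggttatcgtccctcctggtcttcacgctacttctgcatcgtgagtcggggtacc

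The motifs were searched on both strands over the 250 bases before the start site. These were TTTGAA and TTTAAA, which are forms of the cell cycle genes homology region (CHR), the CCAAT box, and TTTNNCGC, a form of the site for E2F factors. Positions count back from the start site and give the first base of a match. A CHR form was found in 5 of the 6 promoters: TTTGAA in Mki67 (-117 and -99), Top2a (-22) and Cdk1 (-72 and -16), and TTTAAA in Ccnb1 (-25) and Plk1 (-113 and -53). Of all 33469 RefSeq promoters of this length, 25.4% held at least 1 of these CHR forms. CCAAT was found in all 6 promoters, against 34.0% of all promoters, with 4 matches each in Mki67 and Top2a, 3 in Cdk1, 2 in Ccnb1, and 1 each in Plk1 and Pcna. A CHR form and CCAAT stood in the same promoter in 5 of the 6, against 9.04% of all promoters. In Mki67 the CHR match at -99 and the CCAAT match at -94 share 1 base. TTTNNCGC was found in Cdk1 (-133 and -30) and in Plk1 (-135), against 4.11% of all promoters. In the printed window of Pcna the CCAAT match at -168 was the only match to these motifs. A match is a run of letters and was not tested as a binding site.

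**Figure D1:**
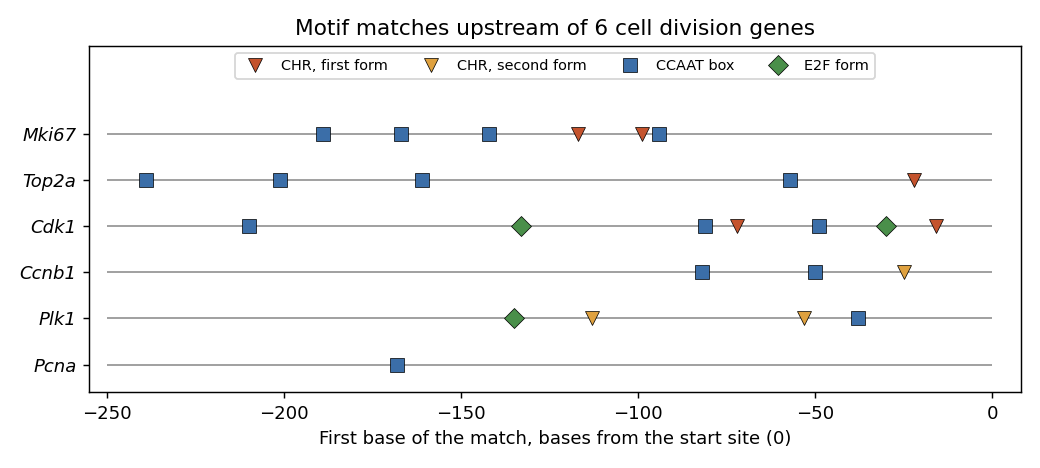
Position of each motif match (x axis, bases from the start site) in the 250 bases upstream of 6 cell division genes (rows), with a symbol for each motif. A CHR form lies in all rows but that of Pcna, and CCAAT lies in every row.

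The libraries held between 15304166 and 18494281 counts, and the afatinib libraries were all shallower than the vehicle libraries. The 7 genes had between 25 and 2261 counts in a library. Levels are given as CPM (each count relative to the summed counts of the tested features, on the usual CPM scale) after scaling by the trimmed mean of M-values (TMM), which corrects for differences in RNA composition. These values are not corrected for transcript length, so they compare libraries and not genes. Over all tested features afatinib replicate 3 correlated with the vehicle libraries by 0.943 to 0.960 (log2 CPM), with afatinib replicate 1 by 0.907 and with afatinib replicate 2 by 0.944, while afatinib replicates 1 and 2 correlated by 0.967. The sum over the 7 genes, the tests and the counts of groups without overlap are also given without afatinib replicate 3. This library was picked with these data known. It was the lowest afatinib library for 7 of 7 genes, against 41.6% of all features. Leaving it out therefore raises the afatinib mean of each of these genes.

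In mean level all 7 genes were higher in afatinib-treated skin, between 1.88 times (Pcna) and 3.93 times (Ccnb1) the vehicle mean, and 0 of 7 passed an adjusted p of 0.05 with all 6 libraries in edgeR's quasi-likelihood test. In that test 0% of the 15497 features were called higher. The difference was carried by afatinib replicates 1 and 2, with a smaller one in replicate 3. Summed over the 7 genes, the vehicle libraries had 134.9, 69.2 and 120.0 CPM, and the afatinib libraries 469.9, 302.5 and 159.8 CPM. The afatinib sums were thus 4.35, 2.80 and 1.48 times the vehicle mean, and the lowest of them lay above the highest vehicle sum. Mki67, Top2a and Pcna held 29.4%, 20.8% and 29.5% of the sum in afatinib replicate 3. The groups of Cdk1, Ccnb1 and Plk1, which weigh little in the sum, overlapped. The group means were 108.0 ± 34.5 CPM in vehicle and 310.7 ± 155.2 CPM in afatinib (SD, n = 3 each; p = 0.1 in a two-sided exact permutation test, which cannot go lower with 3 against 3 libraries). Without afatinib replicate 3 the ratio of these means was 3.57 instead of 2.88. On the log2 scale it was 1.52 with all 6 libraries and 1.84 without afatinib replicate 3. It was lower without afatinib replicate 1 (1.10) or without vehicle replicate 2 (1.29).

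Pcna, the replication clamp, had 36.7, 32.1 and 43.1 CPM in vehicle replicates 1, 2 and 3 and 94.9, 68.6 and 47.2 CPM in afatinib replicates 1, 2 and 3. The groups did not overlap, although the 95% counting interval of afatinib replicate 3 (43.8 to 50.8 CPM) met that of vehicle replicate 3 (40.1 to 46.3 CPM). Such intervals are exact Poisson intervals and cover counting error only. Its group means were 37.3 ± 5.52 and 70.2 ± 23.9 CPM (SD, n = 3), a fitted log2 fold change of 0.91 with an adjusted p of 0.198 in edgeR. Ccna2, the cyclin of replication and mitotic entry, had 10.7, 4.79 and 7.06 CPM in the vehicle libraries and 42.7, 24.3 and 10.8 CPM in the afatinib libraries. Afatinib replicate 3 of Ccna2 lay just above vehicle replicate 1, by less than the counting interval of either library, and below it when libraries were scaled by their totals alone (9.86 against 10.3 CPM). The means were 7.50 ± 2.96 and 26.0 ± 16.0 CPM (SD, n = 3), with a log2 fold change of 1.79 and an adjusted p of 0.204 in edgeR.

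Cdk1 and Ccnb1, the kinase and the cyclin of mitotic entry, were high in afatinib replicates 1 and 2 and at vehicle level in replicate 3. Cdk1 had 11.8, 2.96 and 7.69 CPM in the vehicle libraries and 33.5, 22.1 and 8.64 CPM in the afatinib libraries, so afatinib replicate 3 lay below vehicle replicate 1. Its log2 fold change was 1.52, with an adjusted p of 0.261 in edgeR. Ccnb1 had 7.40, 3.59 and 7.51 CPM in the vehicle libraries and 44.1, 22.2 and 6.43 CPM in the afatinib libraries. Ccnb1 thus had both the largest afatinib replicate 1 value relative to its vehicle mean, 7.15 times, and the smallest afatinib replicate 3 value, 1.04 times. Its log2 fold change was 1.97, with an adjusted p of 0.220 in edgeR. Plk1, the mitotic kinase, had 6.95, 1.58 and 5.62 CPM in the vehicle libraries and 31.6, 15.7 and 6.49 CPM in the afatinib libraries. The groups of Plk1 overlapped as those of Cdk1 and Ccnb1 did, and its vehicle replicate 2 value rested on 25 counts (counting interval 1.02 to 2.33 CPM). Its log2 fold change was 1.92, with an adjusted p of 0.233 in edgeR.

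Top2a and Mki67 serve chromosome untangling and the surface of mitotic chromosomes. Both were higher in every afatinib library than in any vehicle library, in TMM-scaled CPM by more than counting error. Top2a had 27.5, 11.1 and 19.7 CPM in the vehicle libraries and 89.6, 56.1 and 33.2 CPM in the afatinib libraries. The lowest afatinib library of Top2a stood above the highest vehicle library, and their counting intervals (30.4 to 36.3 and 25.1 to 30.0 CPM) did not meet. Scaled by library totals alone, the same libraries had 30.4 and 26.5 CPM, a smaller gap for which no counting interval was computed. Its means were 19.4 ± 8.20 and 59.6 ± 28.3 CPM (SD, n = 3), with a log2 fold change of 1.62 and an adjusted p of 0.198 in edgeR. Mki67 had 34.0, 13.1 and 29.3 CPM in the vehicle libraries and 133.5, 93.4 and 47.0 CPM in the afatinib libraries. In afatinib replicate 3 (counting interval 43.7 to 50.6 CPM, against 31.3 to 36.8 CPM in vehicle replicate 1) it stood at 1.85 times the vehicle mean, the highest such ratio of the 7 genes. Its means were 25.5 ± 11.0 and 91.3 ± 43.3 CPM (SD, n = 3), with a log2 fold change of 1.84 and an adjusted p of 0.192 in edgeR, the smallest of the 7.

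**Figure D2:**
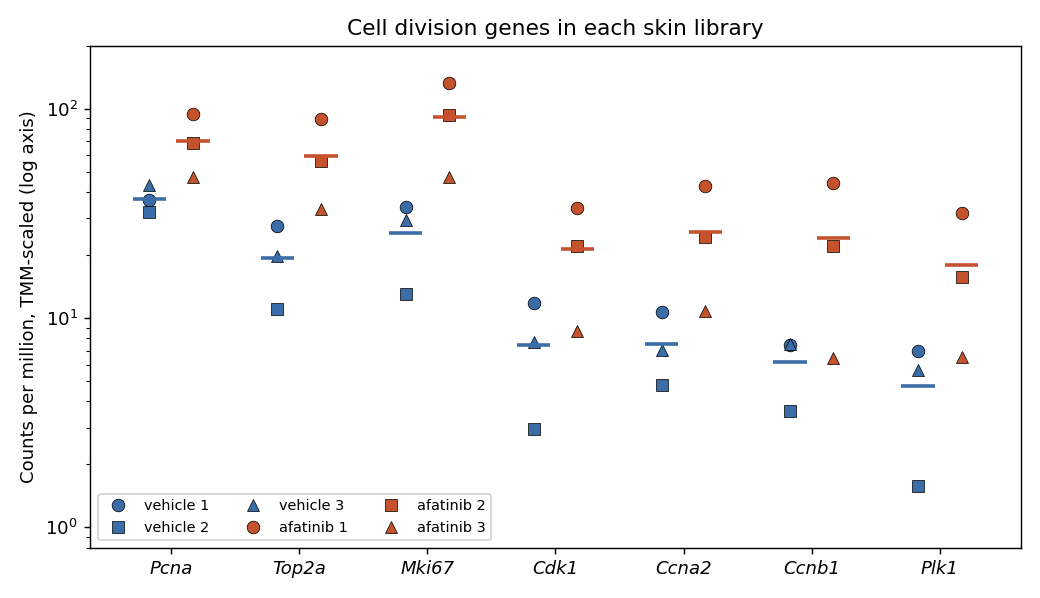
TMM-scaled CPM (log axis) of each gene in each library, with vehicle in blue, afatinib in red, 1 symbol per replicate number and a bar at each group mean. Afatinib replicate 1 is the highest point and vehicle replicate 2 the lowest for all 7 genes, and afatinib replicate 3 lies among or above the vehicle points.

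The 7 log2 fold changes were set against those of all tested features. The genes were chosen with earlier results of these data known, so this comparison is a description and not a test. Their median was 1.79, against 0.00 over the 15497 features, whose central 90% ran from -0.91 to 1.28. Pcna lay inside this range, with 8.23% of features at or above its value, and the other 6 lay above it. A log2 fold change over 1 (a 2-fold higher fitted level) was reached by 6 of 7, all but Pcna, and by 7.32% of all features. An unadjusted p under 0.05 in edgeR was reached by 6 of 7, all but Cdk1, and by 10.3% of all features in the same direction. In 4 of 7 (Pcna, Ccna2, Top2a and Mki67) the groups did not overlap, against 12.9% of all features with every afatinib library above every vehicle library. With libraries scaled by their totals alone, Ccna2 left this group and 3 of 7 remained, against 13% of all features. Pcna remained only narrowly, with 43.17 CPM in afatinib replicate 3 against 43.09 CPM in vehicle replicate 3. Without afatinib replicate 3 the groups did not overlap in 7 of 7, against 27.8% of all features. Limma voom, which gives standard errors, estimated 1.81 ± 0.50 for Mki67, 1.58 ± 0.46 for Top2a, 0.86 ± 0.27 for Pcna and 1.65 ± 0.61 for Ccna2 (log2 fold change ± SE). Its 95% interval covered 0 for Cdk1 (-0.16 to 3.18), Ccnb1 (-0.36 to 3.69) and Plk1 (-0.09 to 3.86).

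**Figure D3:**
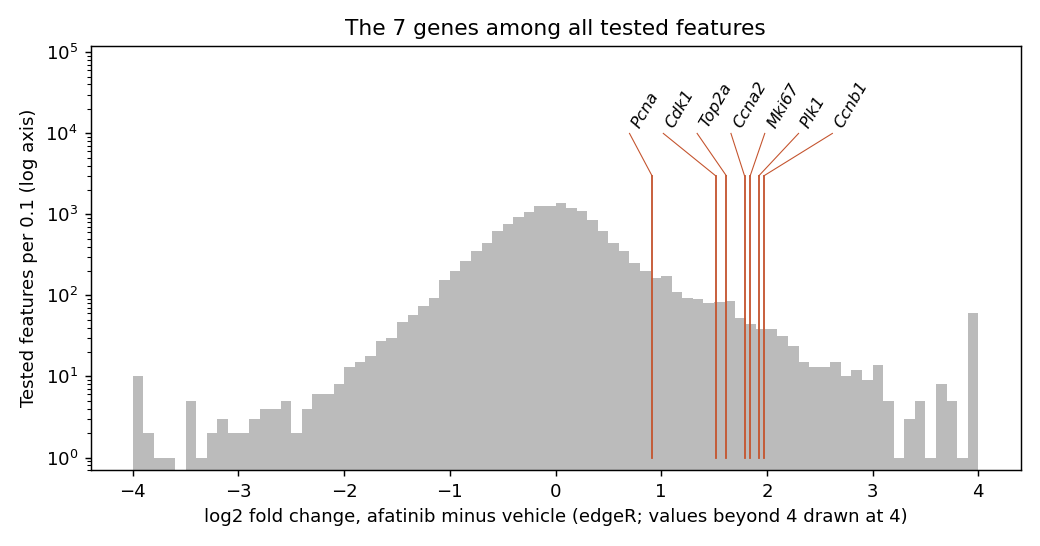
Number of tested features (log axis) by log2 fold change, afatinib minus vehicle, in edgeR, with a red line at each of the 7 genes. Pcna stands at 0.91 and the other 6 between 1.52 and 1.97, to the right of the bulk of features.

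The call depended on the test and on which libraries entered it. Without afatinib replicate 3, 4 of 7 passed in edgeR and were higher after afatinib, with adjusted p-values of 0.0324 for Pcna, 0.0369 for Ccnb1, 0.0385 for Ccna2 and 0.0485 for Mki67, against 5.18% of all features called higher. Top2a, Plk1 and Cdk1 did not pass there, with adjusted p-values of 0.0542, 0.0870 and 0.0971 at log2 fold changes of 1.90, 2.32 and 1.89. Without any other single library 0 of 7 passed in edgeR, and 4 or 6 of 7 had an unadjusted p under 0.05, against 5.52% to 8.15% of all features in the same direction. DESeq2, a second count test, called 5 of 7 higher with all 6 libraries, against 3.9% of features, with adjusted p-values of 0.00666 for Mki67, 0.0148 for Top2a, 0.0202 for Ccna2, 0.0379 for Ccnb1 and 0.0470 for Pcna. Plk1 (0.0573) and Cdk1 (0.108) were not called. DESeq2 called all 7 without afatinib replicate 3, against 12.9% of features, and 0 of 7 without afatinib replicate 1 or without afatinib replicate 2, where 1% and 0.844% of features were called higher. It called Mki67, Top2a and Ccna2 without vehicle replicate 1 (1.28% of features), and Mki67 alone of the 7 without vehicle replicate 2 (1.24%) or vehicle replicate 3 (2.78%). In each of these fits the estimate was above 0 for all 7 genes.

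**Figure D4:**
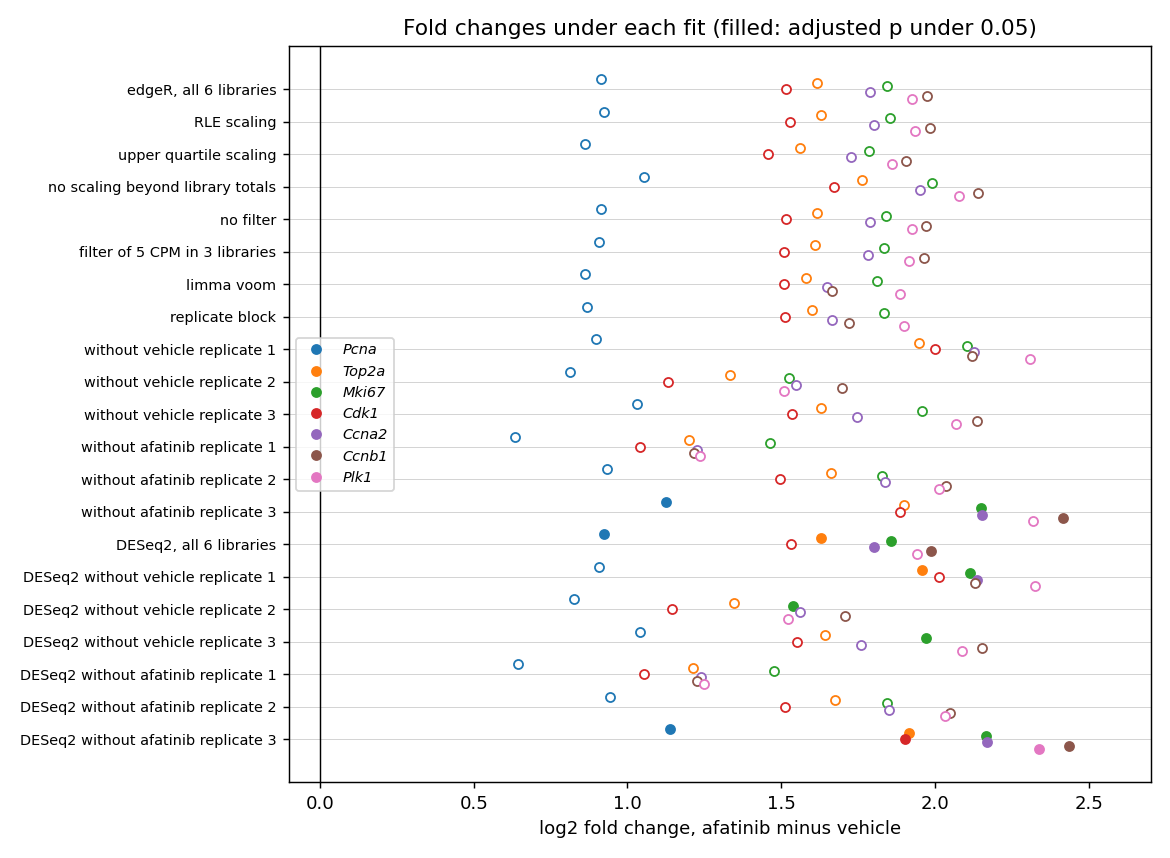
Log2 fold change, afatinib minus vehicle (x axis), of each gene (colour) under each fit (rows), filled where the adjusted p is under 0.05. All points lie to the right of 0, and the filled points are all in the fits by DESeq2 or without afatinib replicate 3.

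Libraries of the same group also differed widely in these genes. Among the vehicle libraries the highest value was 4.41 times the lowest for Plk1, 3.97 times for Cdk1, 2.60 times for Mki67, 2.48 times for Top2a, 2.22 times for Ccna2, 2.09 times for Ccnb1 and 1.34 times for Pcna. The median of this ratio over all tested features was 1.33, and 12.6% of features had at least the median of the 7 genes (2.48). Vehicle replicate 2 was the lowest of the 6 libraries for 7 of 7 genes, against 22.8% of all features. Its Plk1 level was 0.251 times the mean of the other vehicle libraries, and its Pcna level 0.805 times. Among the afatinib libraries the highest value was between 2.01 times (Pcna) and 6.86 times (Ccnb1) the lowest, against a median of 1.49 over all features. Afatinib replicate 1 was the highest of the 6 libraries and afatinib replicate 2 the second for 7 of 7 genes, against 30.1% and 26.2% of all features. For Cdk1 and Plk1 the range among vehicle libraries (3.97 and 4.41 times) exceeded the ratio of the group means (2.86 and 3.81 times). The range among afatinib libraries exceeded that ratio for all genes but Mki67 (2.84 against 3.59 times) and Top2a (2.69 against 3.07 times). For Ccnb1 it was 6.86 against 3.93 times, and for Pcna 2.01 against 1.88 times.

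**Figure D5:**
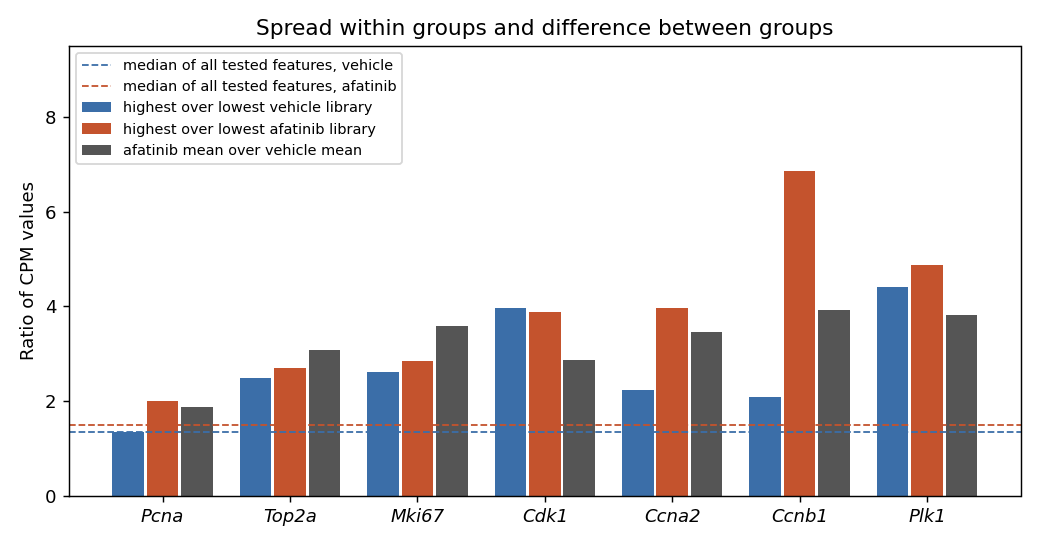
Ratios of CPM for each gene: highest over lowest vehicle library (blue), highest over lowest afatinib library (red) and afatinib mean over vehicle mean (grey), with dashed lines at the median of all tested features for the within-group ratios. The afatinib range of Ccnb1 (6.86) is the tallest bar, and for Cdk1 and Plk1 the blue bar exceeds the grey one. The red bar exceeds the grey one for all genes but Mki67 and Top2a.

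The share of each gene in the summed signal was also compared. Mki67 held 25.2%, 18.9% and 24.4% of the summed CPM of the 7 genes in vehicle replicates 1, 2 and 3 and 28.4%, 30.9% and 29.4% in afatinib replicates 1, 2 and 3, without overlap. Pcna held 27.2%, 46.4% and 35.9% in the vehicle libraries and 20.2%, 22.7% and 29.5% in the afatinib libraries, with overlap. The Pcna share was largest in vehicle replicate 2, the library in which all 7 genes were lowest, and within the afatinib group in replicate 3. With 3 against 3 libraries the exact permutation p cannot go below 0.1, so no share could pass 0.05, with or without adjustment. The exact permutation p was 0.1 for Mki67 and 0.2 for Pcna (two-sided, Benjamini-Hochberg adjusted over the 7 shares, p = 0.56 for both). For Top2a, Ccnb1, Ccna2, Plk1 and Cdk1 the shares overlapped, with permutation p-values from 0.3 to 1 (adjusted 0.56 to 1). These shares are not corrected for transcript length.

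The 7 genes followed each other across libraries. Over the 6 libraries the Pearson correlation of log2 CPM in the 21 pairs ran from 0.901 (Cdk1 with Pcna) to 0.994 (Mki67 with Top2a), and Spearman's rho from 0.771 to 1. With each group's mean removed the pairs still correlated by 0.814 to 0.997, so the genes also varied together within the groups. Without afatinib replicate 1 and vehicle replicate 2, the libraries farthest from the median, the range over the 4 others was 0.731 to 0.981. These are descriptions of 6 libraries that share depth and tissue composition. Of the 11659 other tested features with a mean of at least 5 CPM, 568 (4.87%) correlated by 0.95 or more with the mean of the 7 genes, and the median over these features was 0.00. The features most like that mean were ENSRNOG00000025581 (r = 0.998, with 3.25, 1.01 and 2.24 CPM in vehicle and 13.4, 8.42 and 3.25 CPM in afatinib libraries) and ENSRNOG00000002012 (r = 0.998, with 3.98, 1.89 and 3.67 CPM in vehicle and 10.8, 7.65 and 3.96 CPM in afatinib libraries). The count tables hold identifiers without symbols. The 5 lists of further cell cycle genes and the 13 lists of skin cell type markers could not be joined to them by symbol, so whether markers of epidermis, hair follicle or other cell types moved with these 7 genes was not tested.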

How the data were processed

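Total RNA of frozen back skin (Trizol, 1 µg per library) was sequenced on the Illumina platform, per the labels' protocols. Each library has its own deposited table of raw counts. HISAT2 2.0.5, featureCounts 1.5.0-p3 and DESeq2 1.16.1 are named in the submitters' processing notes. Build, annotation, strandedness and the handling of reads with several map positions were not stated in the labels, so overlapping or near-identical genes may share reads. The tables also hold 1147 loci without a gene identifier, which were kept.

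Symbols of the 7 genes come from the list that chose them. The RefSeq table (GRCr8) paired 0 of the 33692 features with a symbol. The 7 genes and all lists and tests were chosen with earlier results of these data known.

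Groups and replicate numbers were taken from the sample titles, and the column headings number the same afatinib libraries 3, 4 and 5. No pair of libraries looked like repeat deposits of 1 library (chi-square per degree of freedom at least 28.2). From the counts, features were filtered with filterByExpr, scaled by TMM and tested with edgeR 4.0.16 (quasi-likelihood test, robust, group as the only term, R 4.3.3). The Benjamini-Hochberg adjustment ran over all tested features, with a threshold of 0.05. Log2 CPM used a prior count of 2. The alternatives were other scalings, other filters, DESeq2 1.42.0, limma 3.58.1 with voom, a replicate block and each library left out. The DESeq2 fits with a library left out and the overlap counts were added after seeing the data. The fits were tested on simulated data. Single values were compared with exact permutation tests in SciPy 1.17.1. The genes named are the 7 members and, by the likeness rule, the 2 identifiers closest to their mean.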

Additional observations from a re-analysis of the deposited data

How the results depend on the processing

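All 140 estimates of the 7 genes under the alternatives (20 per gene) were above 0. The calls were less stable. In edgeR, other scalings, other filters and limma voom left 0 of 7 genes and 0 features called. With all 6 libraries DESeq2 called 1032 features in either direction, of which 593 (3.9% of those tested) were higher. It called 5 of the 7 genes, all higher, with log2 fold changes of 1.85 for Mki67, 1.63 for Top2a, 1.99 for Ccnb1, 1.80 for Ccna2 and 0.92 for Pcna. With single libraries omitted, edgeR called between 0 and 1627 features in either direction and between 0 and 4 of the 7 genes. Both were highest without afatinib replicate 3, where 829 features (5.18%) were called higher. DESeq2 then called between 270 and 4085 features in either direction and between 0 and 7 of the genes. Features were fewest without afatinib replicate 2 (127 higher, 0.844%) and most without afatinib replicate 3 (2102 higher, 12.9%). Over the same omissions the edgeR log2 fold change ran from 1.46 to 2.15 for Mki67, from 1.22 to 2.42 for Ccnb1, from 1.23 to 2.15 for Ccna2, from 0.64 to 1.13 for Pcna and from 1.23 to 2.32 for Plk1, lowest without afatinib replicate 1 and highest without afatinib replicate 3. It ran from 1.20 to 1.95 for Top2a and from 1.04 to 2.0 for Cdk1, both lowest without afatinib replicate 1 and highest without vehicle replicate 1. The number of genes whose groups did not overlap ran from 4 to 7, with 6 without vehicle replicate 1 (16.4% of all features) and 7 without afatinib replicate 3 (27.8% of all features). It was 4 without any of the other 4 libraries, against 15.2% to 18.8% of all features. The cause of these shifts was not tested.

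With the 6 libraries, edgeR placed 1598 features higher and 1425 lower at an unadjusted p under 0.05, and limma voom 1341 and 1558. Scaling by library totals alone gave 1851 and 1068 and shifted the median log2 fold change of all features to 0.12, with that of the 7 genes at 1.95. The replicate numbers showed no pairing: deviations of libraries with the same number correlated by 0.20, -0.21 and -0.39. Those with different numbers ran from -0.37 (vehicle 2 with afatinib 1) to 0.43 (vehicle 2 with afatinib 3). With the replicate block edgeR called 0 features and 0 of the 7 genes, whose median log2 fold change was 1.66. The lists of further cell cycle genes were not run under any setting, since no symbol could be joined to an identifier. At 25 to 2261 counts, counting error was small beside the spread between libraries for most values, apart from the narrow gaps of Ccna2 and Pcna. For Cdk1, Ccnb1 and Plk1, whose groups overlapped, the counting interval of afatinib replicate 3 also met that of vehicle libraries.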
